A study of Mus musculus with 8 samples.

Results

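Myc binding in intestinal crypt cells was compared between mice labelled Rb KO and mice labelled wild type, the control, in 2 of the 8 libraries of a mouse ChIP-exo-seq series. In this assay chromatin is precipitated with an antibody and an exonuclease trims the DNA up to the crosslinked protein, which places a binding event to within a few bases. The members were every deposited Myc site of the 2 crypt libraries, and a site counted as shared if the other list had one at most 250 bp away. The Rb-deficient list held 31397 sites and the control list 159181, 5.07 times as many. Together they made up 190578 of the 284230 sites of the series (67.1%). In both groups the mice were of a mixed C57BL/6, 129 and FVB/N background, the cells were labelled intestinal crypt cells and the precipitation used a Santa Cruz antibody against Myc. Rb was deleted with Ah-cre, an inducible Cre active in the intestine, and the labels do not state whether the wild-type mice carried this Cre or were induced. Nor do they state the ages, the number of mice behind each library or the share of cells that lost Rb.

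Each group was represented by 1 library, so no difference has a replicate check and no p-value is given. The intervals are exact 95% binomial (Clopper-Pearson) intervals and cover counting error only. Sequencing depth is unknown. A difference in binding and a difference in depth or in peak calling between the libraries cannot be told apart, since the control list is the longer one by so much. Binding sites measure neither Rb1 deletion nor expression, so neither the genotype labels nor the cell type could be checked against marker genes. In the control list 1.43% of the sites had the Myc motif, the E-box CACGTG, within 50 bp, against 1.06% in flanking windows, while in the Rb-deficient list the shares were 6.31% and 1.08%. The control sites thus held the motif little more often than their flanks. Whether that library is what its label says was not tested, and each value for shared sites and for sites of the control list only rests on that label. So does each value for sites or genes found only in Rb-deficient crypt, a class set by absence from the control list. The other 6 libraries (E2f3 in both tissues and genotypes, and Myc in villus) were used only to show where else the crypt Myc sites lay.

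Myc is a basic helix-loop-helix leucine zipper transcription factor that binds DNA together with its partner Max, preferably at the E-box CACGTG, often in promoters rich in CpG. Its best known targets make ribosomes, nucleotides and polyamines for growing cells. In the intestine Myc acts downstream of Wnt signalling in the dividing cells of the crypt. Rb, the product of Rb1, is a pocket protein that holds E2F transcription factors in check until cells commit to S phase.

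Several results turn on the E-box, so sequences are shown at the highest-scored promoter sites of the genes with a site in the Rb-deficient list only, in order of score and without Sil1, and at 4 textbook Myc targets (Npm1, Ncl, Odc1 and Cad). They are not typical of the whole Rb-deficient list, of which 5.60% was centred on an E-box. Each line gives 29 bases of the plus strand of the mouse build NCBIM37 (mm9) with the deposited Myc site at its middle base, and capitals mark an E-box CACGTG or its variant CACGCG on either strand.
Pemt, chr11:59859950-59859978, 5′ UTR: ctcaggaggtgcCACGTGggggcctcgcc
Rpl10a, chr17:28465621-28465649, noncoding exon: gccccgcggcccgtctcggaggctctccc
Tbrg4, chr11:6525801-6525829, intron: ggccgaggagCGCGTGcgcaatcgcagcc
Slc19a1, chr10:76496559-76496587, intron: cgactttagagCACGTGttgcctgcaagg
Dazap1, chr10:79727503-79727531, intron: gcgtacgcacgCACGTGgctgtctccctc
Supv3l1, chr10:61912943-61912971, outside genes: cgtgtgtcaataCACGTGcttctctcctt
Larp1, chr11:57822157-57822185, outside genes: gccgggccggcCGCGTGgccaggtcccat
Ppp2r3c and 1110008L16Rik, chr12:56403964-56403992, 5′ UTR: cgcttgggcatttagCGCGTGcgcgccac
Srsf6, chr2:162757581-162757609, intron: ggccgcggcgcCGCGTGgcagggcctcta
G6pc3, chr11:102050922-102050950, 5′ UTR: agcaacagcggcCACGTGgggccttgagg
Fam185a and Ccdc146, chr5:20931260-20931288, coding sequence: gcggcgtggagCACGTGgcgcgcggcctg
Btbd1, chr7:88975054-88975082, outside genes: cacacacacacacacacacacacacacac
Npm1, chr11:33062361-33062389, intron: taacccccaacCACGTGgcaacCACGTGc
Ncl, chr1:88255393-88255421, intron: cgcgcaccagagCACGTGcgcggggaggc
Odc1, chr12:17552033-17552061, intron: ccggcaggggaCACGTGgcccgggaccgg
Cad, chr5:31357218-31357246, 5′ UTR: cgcgcagcgagcCACGTGgaccaactccg

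For contrast, the next lines show the highest-scored promoter sites of genes marked in both lists, leaving out 6 predicted genes at the start of chromosome 9 that ranked before them, and the highest-scored sites of genes marked in the control list only.
Pacsin2, both lists, chr15:83262644-83262672, intron: agtacagtccactggaaaagctcatttgc
Bbc3, both lists, chr7:16896054-16896082, intron: ggggcacttgagctgtgtttgtgtgtcgc
Pnpla8, both lists, chr12:45370674-45370702, intron: gttgcttaagcagaaccagatgcgcgtcc
Mcee and Mphosph10, control only, chr7:71538055-71538083, intron: cacactaaatgttttcatctgacatgagc
Cdk16, control only, chrX:20266346-20266374, intron: aaagacagttccaaaacattctagtggaa
Neither motif occurs in these 5 windows. A match is a description of the letters at a site and does not show binding by Myc and Max.

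The sites found only in Rb-deficient crypt were few, and a larger share of them lay at promoters and carried the E-box than of the shared sites and of the sites found only in control crypt. Most of them still lay away from promoters and had no E-box. Of the 31397 Rb-deficient sites, 3314 had no control site within 250 bp. Of these, 26.4% (24.9% to 27.9%) lay within 1 kb of the start site of a protein-coding gene, here called promoter sites, against 2.34% at shifted positions. The share was 3.47% (3.26% to 3.69%) for the 28083 shared sites and 2.54% (2.45% to 2.62%) for the 129237 sites found only in control crypt, where shifted positions gave 2.27% and 2.26%.

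The E-box was within 50 bp of 33.8% (32.1% to 35.4%) of the sites found only in Rb-deficient crypt, against 1.22% in windows 2 kb away. The shares were 3.14% (2.94% to 3.35%) at the shared sites and 1.23% (1.17% to 1.29%) at the sites found only in control crypt, with 1.06% in the flanks of both. At promoter sites found only in Rb-deficient crypt the share reached 51.0% (446 of 875 sites), against 13.3% at shared promoter sites and 2.23% at promoter sites of the control list only. With the variant CACGCG counted as well, 70.9% of the promoter sites found only in Rb-deficient crypt held a motif (67.7% to 73.9%). Of all 101-base windows centred on protein-coding start sites, 2.93% hold CACGTG and 5.05% hold CACGCG.

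**Figure D1:**
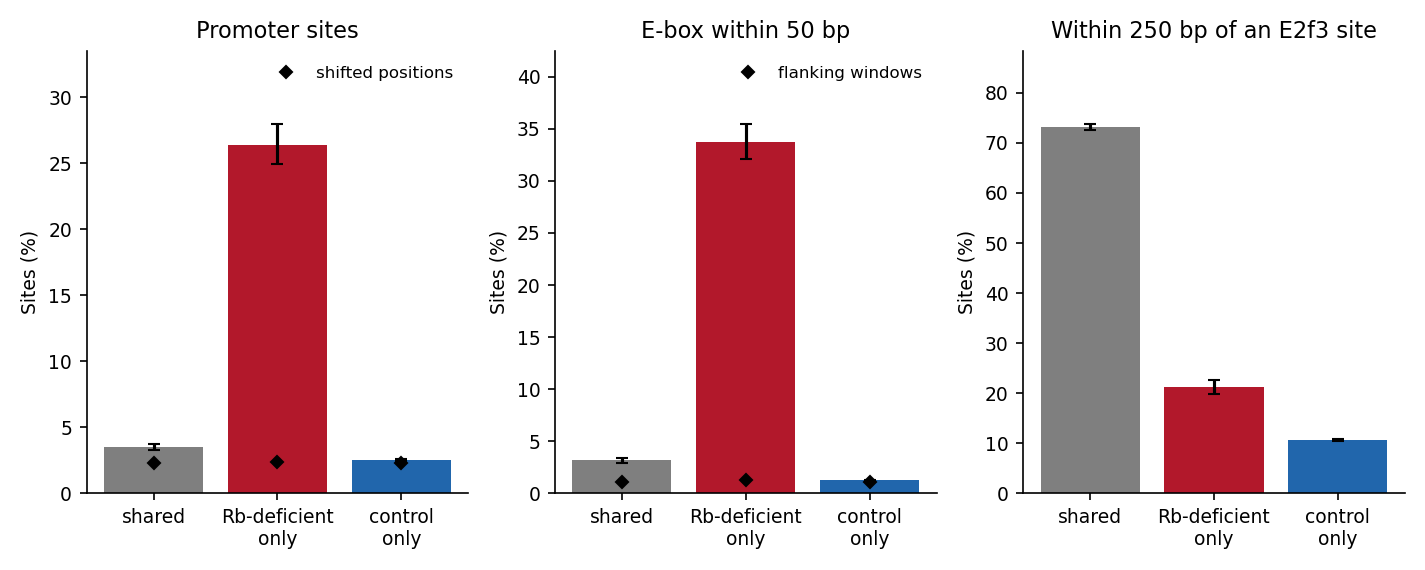
Percent of sites (y axes) in 3 classes of crypt Myc sites that were promoter sites, held an E-box within 50 bp, or lay within 250 bp of an E2f3 site of any of the 4 E2f3 lists. Bars are the share in each class, error bars exact 95% intervals of counting error, and diamonds the share at shifted positions or in flanking windows; the sites found only in Rb-deficient crypt reach 26.4% at promoters and 33.8% with an E-box, while 73.2% of the shared sites lie near an E2f3 site.

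Other E-box variants were also more frequent at the sites found only in Rb-deficient crypt than in their flanks. CACGCG was within 50 bp of 8.80% of them (flanks 0.525%), CACGAG of 4.70% (flanks 1.05%) and CATGTG of 15.5% (flanks 8.20%). The GC box GGGCGG, common in promoters, was at 10.5% (flanks 2.30%) and the E2F motif at 2.66% (flanks 0.572%). The sequence around these sites was richer in CpG, with a mean of 15.1 CpG against 5.08 at shared sites and 4.40 at sites of the control list only, and a median GC content of 47.9% against 42.5% and 41.7%. The E2F motif was TTNNCGC with C or G at each N. All motifs were searched on both strands, and a GC box, an E2F motif or CACGCG can only lie in sequence that contains G and C, so the part of base composition in these shares was not tested.

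The bases next to the E-box differed between the sites found only in Rb-deficient crypt and E-boxes of promoters at large. At the 1050 E-boxes centred under a site of this class, the flanking base on the 5′ side of either strand was C in 48.4% of cases, G in 32.8%, A in 13.4% and T in 5.43%. Over all 9738 E-boxes within 1 kb of protein-coding start sites the shares were 31.0% for C, 23.4% for G, 22.5% for A and 23.1% for T. At the 433 centred E-boxes at promoter sites of this class, C made up 47.7% of cases and T 4.97%. A flanking T was thus rare at E-boxes centred under a site. The program that called the events uses motifs learned from the data to place them, as described below. Its part in these shares was not tested. The 700 centred E-boxes at shared sites had C in 41.4% of cases and T in 7.57%.

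Where a Rb-deficient site had an E-box within 50 bp, the event mostly lay on the E-box itself. Of the Rb-deficient sites with an E-box within 50 bp, 1750 (88.7%) fell on 1 of its middle bases, and among sites found only in Rb-deficient crypt this held for 96.1%. In the control list 2.72% of the sites with an E-box did so. The events came from GEM, as the file names state, a caller that learns motifs from the data and uses them to place events, so shares within 50 bp are not independent of the calling. In a ring from 51 to 250 bp from the site, farther from the point where the caller puts an event, the E-box was at 8.40% of sites found only in Rb-deficient crypt against 4.62% in the flanks, a ratio of 1.82. The ratio was 1.53 at shared sites and 1.35 at sites of the control list only.

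The promoter share of the sites found only in Rb-deficient crypt stayed above that of the shared sites without their E-boxes or their E2f3 neighbours. Without any E-box within 50 bp, 2221 sites remained and 19.3% (17.7% to 21.0%) were promoter sites. Among the 2609 sites with no E2f3 site within 250 bp the share was 23.4% and the E-box share 36.3%. Sites above and below the median score of the Rb-deficient list had promoter shares of 31.5% and 24.3% and E-box shares of 35.8% and 32.9%.

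Around start sites the sites found only in Rb-deficient crypt formed a narrow peak. The 200 bp upstream of the start site held 8.31% of them (269 sites) and the 200 bp downstream 5.53% (179 sites). The same bins held 0.571% and 0.393% of the shared sites and 0.262% and 0.188% of the sites of the control list only. By annotation, 4.79% of the sites found only in Rb-deficient crypt were in 5′ UTRs, 39.5% in introns and 50.4% outside genes. For the shared sites these shares were 0.396%, 44.5% and 52.3%.

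**Figure D2:**
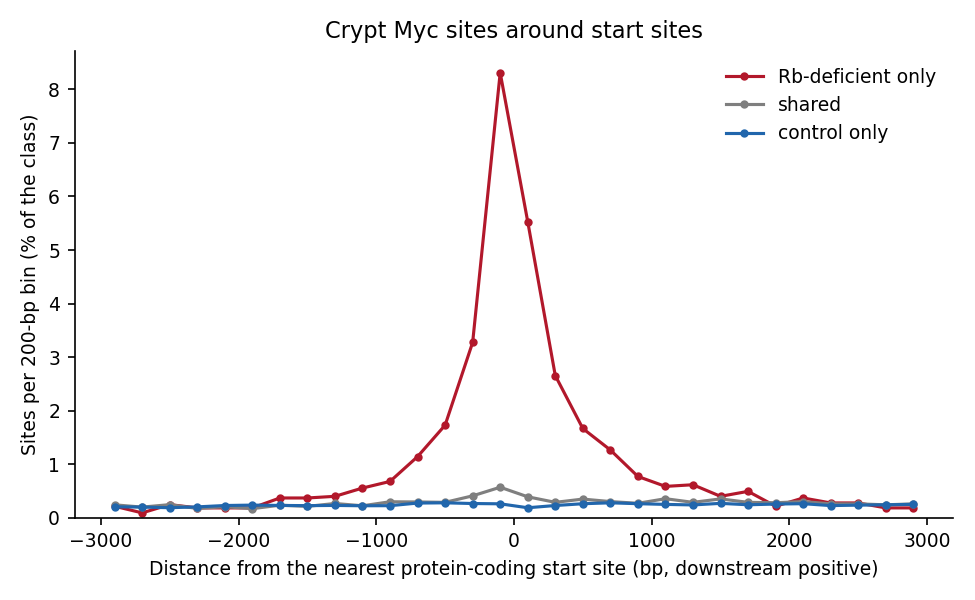
Distance of crypt Myc sites from the nearest protein-coding start site (x axis, bp, in bins of 200 bp) against the percent of each class of sites per bin (y axis). The line of the sites found only in Rb-deficient crypt peaks at 8.31% just upstream of the start, while the shared sites reach 0.571% and the sites of the control list only stay near their level farther out.

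Most sites of the Rb-deficient list were nonetheless shared with control crypt. Of its 31397 sites, 28083 had a control site within 250 bp (89.4%, 89.1% to 89.8%), against 2.98% when the control list was shifted along its chromosomes, a 30.0-fold enrichment. Of the 159181 control sites, 29944 were shared (18.8%, 18.6% to 19.0%), 31.4-fold over shifted positions. With the control list reduced to its 31397 best-scored sites, 20403 of the Rb-deficient sites were shared (65.0%, 64.5% to 65.5%), 110-fold over shifted positions. At the 1000 best-scored sites of each list the share was 57.4% (54.3% to 60.5%), at 5000 it was 66.0% and at 10000 it was 67.7%.

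The shared events lay close together but seldom at the same base. The median distance to the nearest control site was 14 bp, 38.6% of the shared sites were within 10 bp and 96.3% within 50 bp. Only 2.26% were at the identical position. Shared sites with an E-box were farther from their control neighbour, at a median of 25.5 bp.

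**Figure D3:**
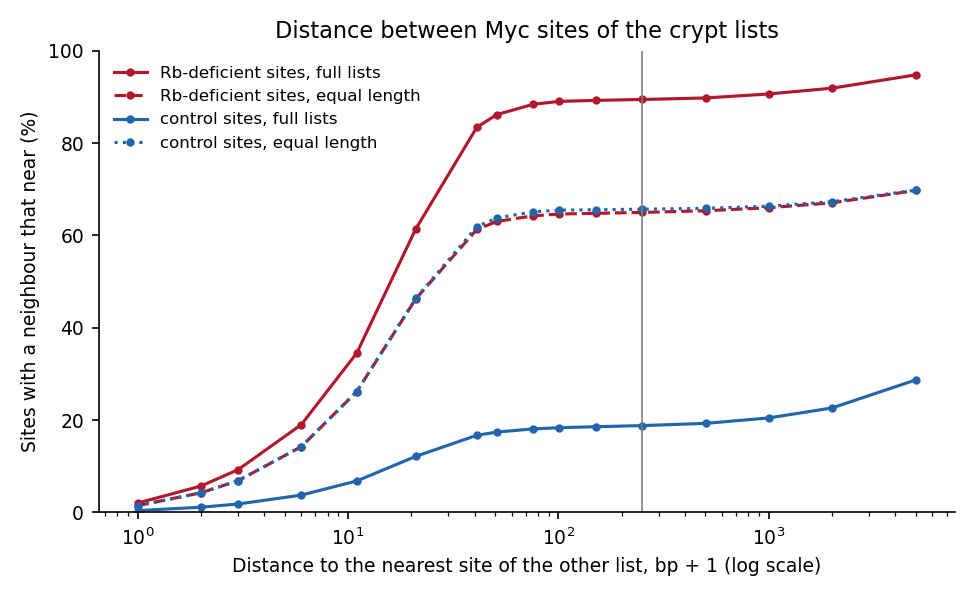
Distance to the nearest site of the other crypt Myc list (x axis, bp plus 1, log scale) against the percent of sites with a neighbour at most that far (y axis), for full lists and for lists of equal length. The curves level off by about 50 bp, at 86.2% for the Rb-deficient sites in full lists and 63.0% at equal length, inside the 250 bp marked by the vertical line.

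Sharing followed the score in both lists. In the best-scored decile of the Rb-deficient list 96.2% of the sites were shared, and in the lowest decile 78.5%. In the control list sharing went from 85.2% in the best decile to 45.1% in the next and 1.65% in the lowest. The E-box ran the other way in the Rb-deficient list, at 3.14% of sites in the best decile and 8.96% in the lowest, and stayed between 1.23% and 1.65% in every decile of the control list. The best-scored Rb-deficient sites were therefore mostly shared sites without an E-box, and the median score was 6.1 for the sites found only in this list and 10.17 for the shared ones. The authors' score is of unknown meaning and was used to rank sites within a list only.

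**Figure D4:**
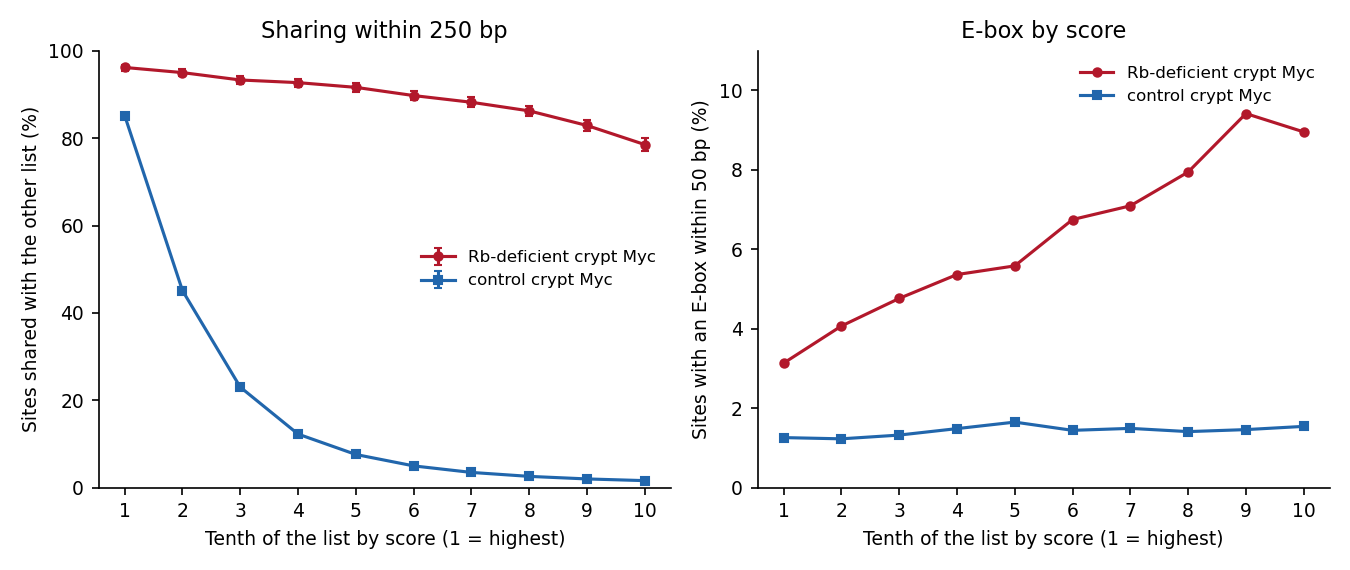
Left, percent of sites shared within 250 bp with the other crypt Myc list (y axis) by decile of the score (x axis, 1 is the highest), with exact 95% intervals of counting error. Right, percent of sites with an E-box within 50 bp by the same deciles: sharing falls from 85.2% to 1.65% in the control list, and the E-box share goes from 3.14% to 8.96% in the Rb-deficient list.

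Promoter sites with an E-box were the kind of Rb-deficient site least often found in control crypt. Of 576 such sites 22.6% (19.2% to 26.2%) were shared, and at equal list length 4.86%. Promoter sites without an E-box were shared in 66.3% of 1273 cases, sites elsewhere with an E-box in 53.7% of 1397, and sites elsewhere without an E-box in 93.9% of 27998. Shifted positions gave between 2.87% and 3.06% for these kinds. The median scores of these kinds were 8.16, 9.57, 6.79 and 9.84 in the same order.

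Sharing also went with E2f3. Of the shared sites 73.2% lay within 250 bp of a site of at least 1 of the 4 E2f3 lists, against 21.3% of the sites found only in Rb-deficient crypt and 10.6% of those of the control list only. Rb-deficient Myc sites near E2f3 were shared with control in 97.0% of cases and the others in 74.3%. Their median scores were 12.95 near E2f3 and 5.61 away from it. In the best-scored decile of the Rb-deficient list 96.4% of the sites lay near E2f3, and in the lowest 33.3%. The part of the score in this sharing was not tested. An E-box site away from E2f3 was shared in 32.2% of 1392 cases and an E-box site near E2f3 in 74.3% of 581. Sites without an E-box were shared in 97.6% of cases near E2f3 and 81.1% away from it. The E2f3 libraries were made with another antibody, and the part in this sharing of regions that many libraries mark was not tested.

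The same split appeared in the other libraries. Of the shared sites 63.6% lay near a control crypt E2f3 site, 54.7% near a Rb-deficient crypt E2f3 site, 23.0% near a control villus Myc site and 13.3% near a Rb-deficient villus Myc site. For the sites found only in Rb-deficient crypt these shares were 12.5%, 15.1%, 3.11% and 3.02%, and 78.4% of them were near no site of the other 6 lists, against 26.1% of the shared sites. Of the 446 promoter sites with an E-box found only in Rb-deficient crypt, 91 were near a Rb-deficient crypt E2f3 site, 1 near a Rb-deficient villus Myc site and 0 near a control villus Myc site. The villus Myc lists were short, at 4119 and 7223 sites, and shifted positions gave 0.135% or less for both in each of these classes.

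The crypt E2f3 lists, which come from separate libraries, split in a partly similar way. Sites of the Rb-deficient E2f3 list without a control E2f3 site were promoter sites in 27.5% of cases and shared ones in 14.3%. Unlike the E-box in the Myc lists, the E2F motif had similar shares at the sites found only in Rb-deficient crypt (9.18%, 8.57% to 9.82%) and at the shared ones (9.34%, 8.93% to 9.77%). Sites found only in the control E2f3 list had 5.46% promoter sites and 2.85% with an E2F motif.

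Of 22219 protein-coding genes, the Rb-deficient list placed a Myc promoter site at 1838 (8.27%) and the control list at 3829 (17.2%). A site was found only in the Rb-deficient list at 745 genes (3.35%), in both at 1093 (4.92%) and only in the control list at 2736 (12.3%). At equal list length the control list reached 828 genes (3.73%), and 1266 genes (5.70%) had a site only in the Rb-deficient list, 572 (2.57%) in both and 256 (1.15%) only in the control list. The longer control list thus marked more genes, and the reverse held once the lists were of equal length. The best promoter site held an E-box at 50.2% of the 745 genes (374 genes), at 18.7% of the 1093 genes by their Rb-deficient site, and at 2.38% of the 2736 genes by their control site. An E2f3 promoter site in Rb-deficient crypt is found at 20.2% of all genes and was found at 42.7% of the 745 genes, 61.3% of the 1093 and 26.6% of the 2736. For control crypt E2f3 the share of all genes was 14.6%, and the shares of the same 3 classes were 28.7%, 58.0% and 21.9%.

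Pemt, which methylates phosphatidylethanolamine to phosphatidylcholine, had the highest-scored site among the 745 genes, at 111.11 and 15 bp downstream of its start. Rpl10a, a ribosomal protein of the large subunit, followed at 98.9, 219 bp downstream, with no E-box. Tbrg4, a mitochondrial RNA-binding protein, had a site of score 85.49 on the CACGCG variant.

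Slc19a1, the reduced folate carrier, had a site of score 78.35 and Dazap1, an RNA-binding protein, one of 74.38, both on an E-box. Supv3l1, a mitochondrial RNA helicase, had a site of 73.01 on an E-box 471 bp upstream of its start. Larp1, which binds mRNAs of ribosomal proteins, had a site of 68.83 with the CACGCG variant, as did Srsf6, a splicing factor, at 57.54. One site of score 66.87 served both Ppp2r3c, a subunit of protein phosphatase 2A, and 1110008L16Rik.

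The remaining genes in this ranking were Sil1, an exchange factor for the chaperone BiP, at 57.49, G6pc3, a glucose-6-phosphatase, at 54.35 and 2 bp from its start, Fam185a and Ccdc146, which shared an E-box site of 54.02, and Btbd1 at 52.04. The Btbd1 site lay in a CA repeat, and Btbd1 had promoter sites in 5 of the other 6 lists. Of the 15 genes, 7 had an E-box within 50 bp of the site. A control Myc site lay within 5 kb of a start site, though not within 1 kb, at 6 of the 15. Of all genes, 53.1% had a control site within 5 kb. That share includes genes with a control site within 1 kb, which the 15 were chosen to lack, so it is not a like background. Of the 15 genes, 11 had no promoter site in any of the other 6 lists. The share of all genes without a site in these lists was not counted, so the 11 have no like background. Each of the 6 lists alone marked between 0.423% and 20.2% of all genes.

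The genes with the highest-scored sites in both lists looked different. The first 6 (Gm10718, Gm10106, Gm10715, Gm11167, Gm17535 and Gm10720) are predicted genes that lie within a short stretch at the start of chromosome 9, and their sites, with scores from 179.5 to the cap of 999 in the Rb-deficient list, accompanied promoter sites in at least 4 of the other 6 lists. Next came Pacsin2, an endocytosis protein, at 175.5 in Rb-deficient crypt, and Bbc3, the pro-apoptotic BH3 protein Puma, at 148.8. Their control sites, 8 and 15 bp away, were at the cap of 999. The sites of all 15 of these genes lacked an E-box and lay near E2f3 sites. Bbc3, for example, had promoter sites in all 6 other lists, with E2f3 scores of 119.5 in control and 64.74 in Rb-deficient crypt and villus Myc scores of 24.97 in control and 22.42 in Rb-deficient mice. The highest-scored promoter sites of the control list only, at Mcee and Mphosph10 (167.9), Cdk16 (163.4) and Tbk1 (145.2), also lay near E2f3 sites, and none of these 3 had an E-box. The Cdk16 site had a Rb-deficient site 275 bp away, outside the promoter window.

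Genes for making ribosomes often had a Rb-deficient site. Of 50 ribosome biogenesis genes, 21 (42.0%) had a promoter site in the Rb-deficient list and 11 (22.0%) in the control list, beside 8.27% and 17.2% of all genes. Of the 21, 13 had one in Rb-deficient crypt only and 8 in both, and 3 more had one in control only. Over all genes 3.35% had one in Rb-deficient crypt only, 4.92% in both and 12.3% in control only. Of the 13, 7 also had no control site within 5 kb of a start site. Within 5 kb, 23 of the 50 had a Rb-deficient site and 22 a control site, beside a control site at 53.1% of all genes. At equal list length control sites remained at 4 of the 50, while over all genes the control share went from 17.2% to 3.73%. The site held an E-box at 14 of the 21 genes. Over all genes the share was 50.2% for those marked in Rb-deficient crypt only and 18.7% for those marked in both.

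Nucleolin (Ncl), an abundant nucleolar protein, had sites in both lists, at a score of 90.01 in Rb-deficient crypt and 50.13 in control crypt, 14 bp apart in an intron. Nucleophosmin (Npm1) had a site of 42.38 in Rb-deficient crypt only, on a pair of E-boxes. Dkc1, the pseudouridine synthase dyskerin, had one of 25.51 in Rb-deficient crypt only. Pes1, which acts in large subunit assembly, had scores of 30.92 (Rb-deficient) and 23.59 (control), and Nop56, a small nucleolar ribonucleoprotein component, sites of 25.47 and 187.31 that lay 153 and 750 bp downstream of a start. Nop56, Pes1, Gar1 and Nat10 all had a site on an E-box in the Rb-deficient list, but of the control sites of these 4 genes only that of Gar1 lay within 50 bp of one.

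Cytosolic ribosomal protein genes had Rb-deficient sites with fewer E-boxes. Of 82 genes, 24 (29.3%) were marked in the Rb-deficient list and 18 (22.0%) in the control list. Sites were in Rb-deficient crypt only at 11, in both at 13 and in control only at 5, beside 3.35%, 4.92% and 12.3% of all genes. Of the 11, 3 also had no control site within 5 kb of a start site. Within 5 kb, 33 of the 82 had a Rb-deficient site and 52 a control site. At equal list length control sites remained at 2 of the 82, beside 3.73% of all genes. The E-box was at 5 of the 24, for example Rpl12 (62.04 in Rb-deficient and 33.16 in control crypt). Rpl32 had 113.84 and 63.67 with no E-box. Of 76 mitochondrial ribosomal protein genes, 13 (17.1%) were marked in the Rb-deficient list and 19 (25%) in the control list, beside 8.27% and 17.2% of all genes. For these genes control sites remained at 4 of the 76 at equal length, beside 3.73% of all genes.

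Metabolic genes counted among the growth targets of Myc had sites in both libraries. Of 39, 15 (38.5%) were marked in the Rb-deficient list and 14 (35.9%) in the control list, beside 8.27% and 17.2% of all genes. Sites were in Rb-deficient crypt only at 8 and in control only at 7, beside 3.35% and 12.3% of all genes. Of the 8, 4 also had no control site within 5 kb of a start site. Within 5 kb, 20 of the 39 had a Rb-deficient site and 26 a control site. With lists of equal length control sites remained at 2 of the 39, beside 3.73% of all genes. The Rb-deficient sites held an E-box at 13 genes and the control sites at 4. Over all genes marked in both lists these shares were 18.7% and 8.78%. They were 50.2% for genes marked in Rb-deficient crypt only and 2.38% for genes marked in control only. Odc1, the rate-limiting enzyme of polyamine synthesis, had 25.75 in Rb-deficient crypt and 2.25 in control crypt, 9 bp apart. Cad, which starts pyrimidine synthesis, had 12.43 and 10.81, at sites 176 bp apart. Srm, spermidine synthase, and Shmt1, an enzyme of one-carbon metabolism, had a site in Rb-deficient crypt only, at 16.33 and 18.69. Atic, an enzyme of purine synthesis, had 20.8 and 12.03.

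**Figure D5:**
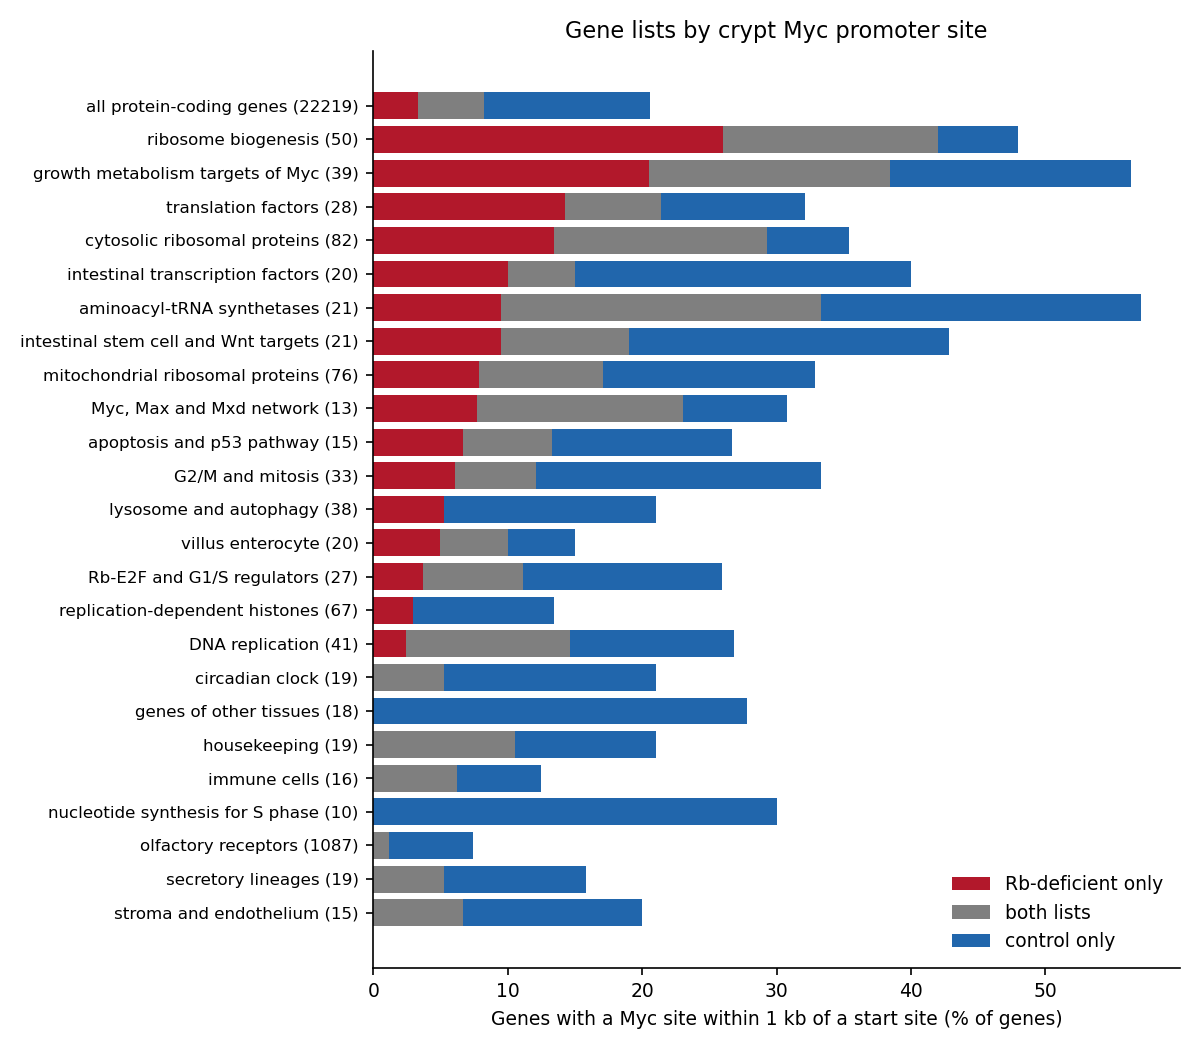
Percent of the genes of each list (y axis, with the number of genes) that had a Myc site within 1 kb of a start site in Rb-deficient crypt only, in both lists or in control crypt only (x axis, stacked bars). Ribosome biogenesis has 26.0% of its genes in the Rb-deficient class and growth metabolism 20.5%, against 3.35% of all protein-coding genes.

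Most other lists of growth and division genes were marked at or above the share of all genes in both libraries. That share was 8.27% in the Rb-deficient and 17.2% in the control list. Nucleotide synthesis genes fell below it in the Rb-deficient list. Replication-dependent histone genes, counted with the lists of the next paragraph, fell below it in both, at 2.99% and 10.4%. Over all genes the longer control list also has the higher share, so a higher control count is not particular to these lists. Aminoacyl-tRNA synthetases had a Rb-deficient site at 7 of 21 genes and a control site at 10, and for translation factors the counts were 6 and 5 of 28. The Myc, Max and Mxd network, which sets the partners available to Myc, had 3 and 3 of 13, with Mnt and Mlxip in both lists, Mga in the Rb-deficient list and Mxi1 in the control list only. DNA replication genes had a Rb-deficient site at 6 of 41 (14.6%) and a control site at 10 (24.4%). The counts were 4 and 9 of 33 for G2/M and mitosis and 3 and 6 of 27 for regulators of Rb, E2F and G1/S. Aurka, the mitotic Aurora A kinase, had scores of 56.71 (Rb-deficient) and 23.02 (control) at sites on an E-box 3 bp apart. Ccne2, cyclin E2, had a site of 12.63 in the Rb-deficient list only. Nucleotide synthesis genes for S phase had a Rb-deficient site at 0 of 10 and a control site at 3.

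Lists of intestinal and of unrelated genes lay on both sides of the 8.27% of all genes in the Rb-deficient list. Above it were stem cell and Wnt targets (19.0%), intestinal transcription factors (15%), apoptosis and p53 (13.3%), housekeeping (10.5%) and enterocyte genes (10%), each with few marked genes, and the other lists of this kind were between 0% and 6.67%. A control site was at 17.2% of all genes, the share to set beside the control counts that follow. Stem cell and Wnt target genes had a Rb-deficient site at 4 of 21 and a control site at 7. Among them Hopx, a marker of reserve stem cells, had scores of 22.39 and 18.71, and Rnf43, a Wnt inhibitor, had 8.52 in the Rb-deficient list only. With the Rb-deficient count first and the control count second, enterocyte genes had 2 and 2 of 20, secretory genes 1 and 3 of 19 and intestinal transcription factors 3 and 6 of 20. The apoptosis and p53 list had 2 and 3 of 15, among them Trp53 at 9.67 in the Rb-deficient list only, and the clock list had 1 and 4 of 19. Lysosome and autophagy genes had 2 and 6 of 38 and replication-dependent histone genes 2 and 7 of 67. The counts were 1 and 2 of 16 for immune cells, 1 and 3 of 15 for stroma and endothelium, 0 and 5 of 18 for genes of other tissues, 2 and 4 of 19 for housekeeping genes and 13 and 81 of 1087 for olfactory receptors. A site at a marker gene does not show that the gene is expressed.

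Among single genes of interest, Rb1, Myc, Mycn, Max and Cdk4 had no promoter site in either list. Within 5 kb of a start site the control list held a site at Rb1 (score 8.01), Max (102.55) and Cdk4 (46.99), and the Rb-deficient list held none at these 5 genes. Over all genes 53.1% had a control site within 5 kb. The shorter Rb-deficient list had a site within 5 kb, without a control site, at 495 of 22219 genes. Both lists had one at 3976. E2f3 had promoter sites in both lists, with scores of 33.32 (Rb-deficient) and 112.57 (control), 8 bp apart and near E2f3 sites at the cap in both crypt E2f3 lists.

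Farther than 5 kb from a start site lay 24387 of the shared sites (87.1%), 2013 of the sites found only in Rb-deficient crypt (62.2%) and 114637 of the sites of the control list only (88.8%). The 4 highest-scored distal sites found only in Rb-deficient crypt were at the cap of 999 and had E2f3 sites nearby, none had an E-box, and their nearest control sites lay between 764 and 1844 bp away.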

How the data were processed

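The authors deposited 1 list of sites per library, each with a 1-bp position and a score, per the files themselves. Bowtie2 2.2.1 and MACS2 2.0.10 were used on the mouse build mm9, per the submitters' processing notes. Per the file names, the events were called by GEM on merged data that kept duplicate reads, and they overlap MACS2 peaks. The sources used here do not state what was merged, the GEM settings, the meaning of the deposited score or the read numbers. Scores run from 2 to a cap of 999, reached by 31 Rb-deficient and 1531 control sites, and were not compared between lists. Positions were taken to count from 0, so printed coordinates are the deposited positions plus 1.

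Sites were shared within 250 bp. The background was the mean over 100 circular shifts. Lists of equal length kept the control sites with scores of at least 38.29, with ties in file order. Promoter sites lay within 1 kb of 45993 protein-coding start sites of GENCODE M1. Motifs were counted within 50 bp and in windows 2 kb to each side. The 145 Rb-deficient and 184 control sites outside the reference kept their place in site counts. They also counted in the shared, promoter and near-E2f3 shares of each list and site class. Motif shares, annotation shares and folds used the numbered chromosomes, X and Y only, as did sharing split by promoter, E-box and E2f3. Of the 28083 shared Rb-deficient sites, 28007 lay on these chromosomes and entered the fold. Calculations used Python 3.11.15, numpy 2.4.6, pandas 2.3.3, scipy 1.17.1 and pysam 0.24.0, and the sharing and motif counts were tested on simulated lists.

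The gene lists, members and comparisons were chosen with earlier results of these data known. Named genes were those with the highest score of the best promoter site: 15 in Rb-deficient crypt only, 15 in both and 10 in control only, the leading members of each of 24 gene lists, and 10 genes of general interest. Of the listed genes, 4 were not found in the annotation. With 1 library per group no test was made.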

Additional observations from a re-analysis of the deposited data

How the results depend on the processing

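Every alternative compared 1 library with 1, so each gives a value and not a test, and depth, which is unknown, limits all of them. No paired analysis was possible because each group has 1 library. The alternative without repeats was not run, since the reference used here marks none. Leaving out sites within 250 bp of an E2f3 site was chosen after seeing the data, as were the ring around the sites, the bases next to the E-box and the splits of the sites found only in Rb-deficient crypt. The share of Rb-deficient sites that were shared in full lists (89.4%) was 86.2% within 50 bp, 90.6% within 1 kb, 92.6% above the median score of each list and 74.2% away from E2f3. The share of control sites (18.8%) was 17.4%, 20.5%, 19.4% and 6.38% in the same order, and 18.0% with clustered sites joined. The fold over shifted positions (30.0) was 140, 8.09, 62.0 and 31.7 in that order, 30.3 with clustered sites joined and 25.8 over local shifts of 5 to 50 kb. At equal length, the share (65.0%) was 63.0% within 50 bp, 66.0% within 1 kb, 67.7% for the 10000 best-scored sites and 30.4% away from E2f3, and the fold (110) was 522 within 50 bp, 28.3 within 1 kb, 160 away from E2f3 and 93.8 over local shifts.

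The promoter share of Rb-deficient sites (5.89%) was 2.65% within 250 bp and 15.4% within 5 kb of a start site, 5.54% above the median score and 9.29% away from E2f3. That of control sites (2.70%) was 0.663%, 11.5% and, away from E2f3, 2.48%. The E-box share of Rb-deficient sites (6.31%) was 12.5% within 250 bp, 4.59% above the median score and 13.7% away from E2f3, and that of control sites (1.43%) was 7.36% within 250 bp. Genes with a site in Rb-deficient crypt only (745) numbered 495 with start sites within 5 kb, 354 above the median scores and 1266 at equal length. Genes with a site in both (1093) numbered 327 within 250 bp, 3976 within 5 kb, 539 above the median scores, 572 at equal length and 422 away from E2f3. Genes with a site in control only (2736) numbered 711, 7819, 1546 and, at equal length, 256. For the gene lists, 24 counts moved by over 1.5 times at equal length, 33 of 48 with start sites within 250 bp and 36 of 48 within 5 kb.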

Other observations

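The control crypt list had a short sequence of its own. Among all 7-base sequences within 8 bp of its sites, GATGAAC was the most enriched over the flanks, at 1.01% of sites (1612 sites) against 0.119%. Of the 2555 matches within 50 bp of a control site, 1517 began at exactly the site's own position, against a mean of 10.9 at other offsets. In the Rb-deficient list the sequence most enriched in the same way was CACGTGG, at 3.99% of sites (1248 sites) against 0.0512%, and GATGAAC had 323 matches within 50 bp with at most 8 at any offset. These sequences were found by a search after the data were seen, and no test was made. GEM learns motifs from the data and uses them to place events. The placement of these sequences, and of the variant below, is therefore not independent of the calling.

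The CACGCG variant was also placed unevenly in the Rb-deficient list. Of its 529 matches within 50 bp of a site, 143 began at the same offset, against a mean of 4.10 at the others, while in the control list the commonest offset held 14 of 693 matches.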
